A study of Mus musculus with 4 samples.

Results

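The 40 imprinted genes of the mouse examined here were taken as a list of known members, among them Gnas, Mest, Peg3, Igf2r and Kcnq1ot1. They were compared with all 49943 RefSeq genes. A peak was assigned to a gene where it overlapped the gene or lay within 5000 bp of it. By symbol 39 members were found in the gene table, and Nespas was found through its synonym as Gnasas1. The list covers 21 chromosomal loci, so neighbouring members can share a peak. The wild-type H3K4me3 library had 70 peaks at these genes of 31398 in all, and the Sun-/- H3K4me3 library had 57 of 28505. For H3K9me3 the wild-type library had 38 of 19279, and the Sun-/- library 46 of 17369.

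The peaks come from chromatin immunoprecipitation with antibodies to H3K4me3 and H3K9me3, and sequencing, of peritoneal macrophages, which had been elicited with thioglycollate broth in 8-week-old C57BL/6 mice and cultured. The control group was wild type and the other group carried the genotype labelled Sun-/-, and the labels do not say which Sun gene was removed, so the loss of the gene was not checked. There was 1 library per mark and genotype, 4 in all, and the labels do not give the number of mice behind each. No test between genotypes is possible with 1 library per group, and every interval below covers counting error only. All 8 macrophage markers looked up (Adgre1, Csf1r, Cd68, Itgam, Cd14, Lyz2, Spi1 and Mertk) had an H3K4me3 peak in both genotypes. Of 3 B cell markers 1 was marked in both genotypes, and of 3 T cell markers 2. Of 7 mesothelial and fibroblast markers 6 were marked in the wild type and 3 in Sun-/-, and of 4 neutrophil markers 0 and 2. Among all genes 47.8% had an H3K4me3 peak in the wild type, 46.2% in Sun-/- and 44.1% in both. The part of cells other than macrophages in the results was not tested.

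An imprinted gene is transcribed from the maternal or the paternal copy alone. The choice is set by DNA methylation laid down in the egg or the sperm, at stretches called imprinting control regions. The methylated copy of such a region is known to carry H3K9me3, placed by the enzyme SETDB1 through the zinc finger proteins ZFP57 and ZFP445 and the corepressor TRIM28. The unmethylated copy, often an active promoter, is known to carry H3K4me3. Both marks are therefore mapped to the same stretch in a mixture of both copies. The mice are of an inbred strain and peak lists carry no sequence differences, so the parental copies, and different cells of the dish, cannot be told apart here.

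Both marks were called on top of each other at close to 50% of the members in each genotype. An H3K9me3 peak shared at least 1 bp with an H3K4me3 peak of the same genotype at 19 of 40 members in the wild type, 47.5%, against 9.33% of all genes. In Sun-/- this held for 22 of 40 members, 55%, against 12.4% of all genes. The 19 wild-type members were all among the 22 of Sun-/-, while 6.17% of all genes had such coincident peaks in both genotypes. None of the 40 had them in the wild type alone (3.16% of all genes), and 3 had them in Sun-/- alone, Plagl1, Ube3a and Zdbf2 (6.21% of all genes). Members marked so in the wild type alone appeared under several of the alternatives tried, and the order of the genotypes turned with a score limit of 100, at 11 members in the wild type and 9 in Sun-/-. By locus, 12 of 21 had coincident peaks in the wild type and 15 of 21 in Sun-/-, a count for which no share over the genome was computed. Among genes that had any H3K4me3 peak the shares were 19.5% in the wild type and 26.8% in Sun-/-. Among protein-coding genes alone they were 15.9% and 20.5%, with 10.4% so marked in both genotypes, 5.43% only in wild-type cells and 10.1% only in Sun-/- cells.

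**Figure D1:**
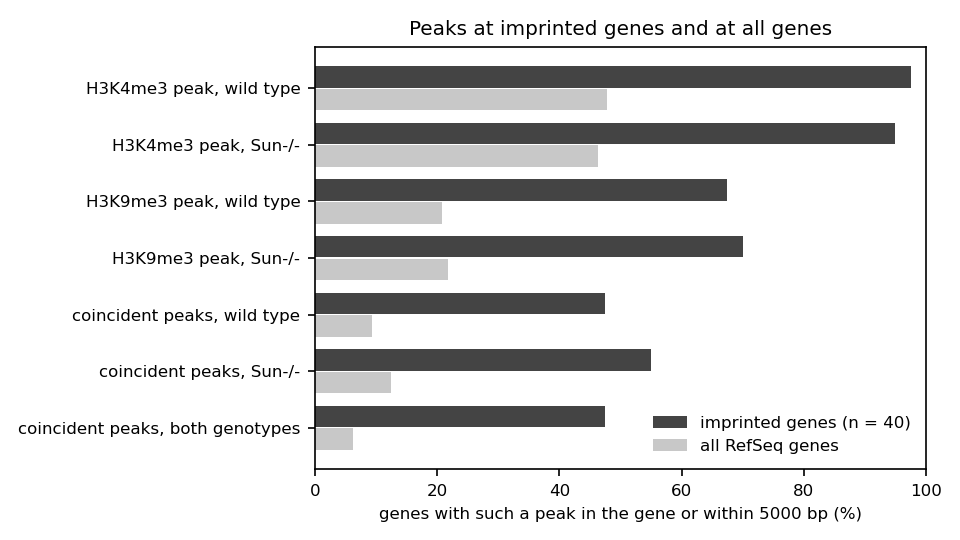
Share of the 40 imprinted genes (dark bars) and of all RefSeq genes (light bars) with a peak of each kind in the gene or within 5000 bp, in percent, with 1 library per mark and genotype and no error bars. The dark bar is the longer one in every row, and for coincident peaks in both genotypes it stands at 47.5% against 6.17%.

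Each mark alone was also called at more of these genes than of all genes. H3K4me3 was present at 39 of 40 members in the wild type (47.8% of all genes) and at 38 in Sun-/- (46.2%). H3K9me3 was present at 27 members in the wild type (20.8% of all genes) and at 28 in Sun-/- (21.8%), and at 26 in both (12.4%). Some members are long genes, such as Snrpn, Kcnq1 and Trappc9, and a long gene can hold more peaks of any kind. Peaks were therefore also compared singly. Of the H3K4me3 peaks at members, 18 of 70 overlapped an H3K9me3 peak in the wild type, 25.7% against 12.6% of all H3K4me3 peaks. In Sun-/- it was 23 of 57, 40.4% against 18.8%. Of the H3K9me3 peaks at members, 18 of 38 overlapped H3K4me3 in the wild type, 47.4% against 22.4% of all H3K9me3 peaks, and 24 of 46 in Sun-/-, 52.2% against 33.7%.

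Across the genome, overlap with H3K9me3 was most frequent at the tag-richest H3K4me3 peaks, and no control library was used in peak calling. At the members too, coincident H3K4me3 peaks held more tags than the others, with medians of 148.5 against 64.5 in the wild type and 128 against 53 in Sun-/-. Over all H3K4me3 peaks these medians were 272 against 81 and 172 against 71. Among wild-type H3K4me3 peaks of at least 100 and below 200 tags, 5 of 12 at members were coincident, against 6.61% of all. From 200 to below 400 tags it was 6 of 14, against 15.4%, and from 400 tags up 2 of 5, against 38.3%. In Sun-/- the same 3 classes gave 8 of 16 (13.4% of all), 6 of 8 (34.1%) and 1 of 2 (51.7%). Below 50 tags the members stood at 2 of 23 in the wild type against 9.37% of all, and at 5 of 22 in Sun-/- against 14.8%. From 50 to below 100 tags they stood at 3 of 16 in the wild type (5.84% of all) and 3 of 9 in Sun-/- (10.3%). The share at members was thus above that of all peaks in the 3 classes from 50 to below 400 tags in both genotypes. How far tag-rich H3K4me3 peaks raise H3K9me3 calls was not tested.

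The coincident peaks fell into 24 separate regions when overlapping peaks were merged over both genotypes. Of these, 16 were under both marks in both genotypes, 7 in Sun-/- alone and 1 in the wild type alone. Over the whole genome 34.8% of 6902 such regions were shared by both genotypes, 42.8% were found in Sun-/- alone and 22.4% in the wild type alone. In the 16 shared regions the wild-type H3K9me3 peaks held 20 to 183 tags with a median of 28, and the Sun-/- peaks 16 to 120 with a median of 32. The H3K9me3 tags summed to 689 in the wild type and 688 in Sun-/-, with 8 regions higher and 8 lower in Sun-/-. The H3K4me3 tags summed to 3782 and 3027, with 15 of the 16 regions lower in the Sun-/- library, a count not made over all shared regions. Over all 17114 H3K4me3 peak pairs matched between genotypes, the median log2 density ratio, Sun-/- over wild type, was -0.19 when scaled to filtered tags. At the 35 matched pairs of the members it was -0.05. The Sun-/- library was also the smaller one, and 14.0% of its filtered tags lay in called peaks, against 17.8% in the wild type. How far this lowers the Sun-/- H3K4me3 tag counts given here was not tested.

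**Figure D2:**
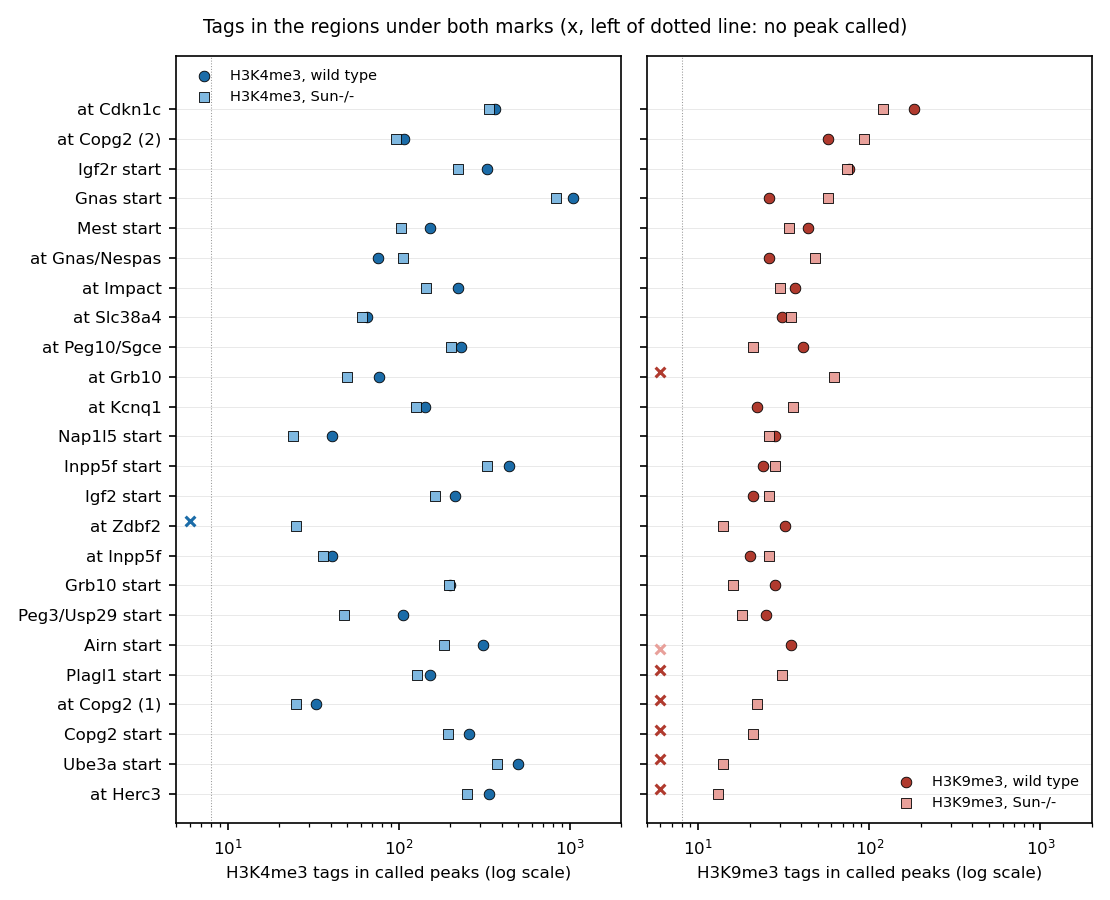
Tags in the called peaks of each of the 24 regions under both marks, H3K4me3 on the left and H3K9me3 on the right (log axes), circles for the wild type and squares for Sun-/-, 1 library each. Regions are ordered by their H3K9me3 tags, numbers in brackets follow position along the chromosome, and a cross marks a library with no called peak. H3K9me3 lies between 13 and 183 tags where called, and 6 regions lack a wild-type H3K9me3 peak while 1, at the Airn start, lacks a Sun-/- one.

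The ratio of H3K9me3 to H3K4me3 tags was higher over coincident pairs of the members than over all such pairs. The median ratio of H3K9me3 to H3K4me3 tags was 0.234 over 18 coincident peak pairs of the members in the wild type, against 0.0872 over all 4317 such pairs. In Sun-/- it was 0.307 over 24 pairs, against 0.152 over 5859. Coincident H3K9me3 peaks held a median of 27 tags at members against 22 genome-wide in the wild type, and 27.5 against 24 in Sun-/-. Coincident H3K4me3 peaks of the members held fewer tags than those genome-wide, with medians of 148.5 against 272 and 128 against 172. The ratios of the members ran from 0.0248 to 0.683 in the wild type and from 0.0325 to 1.24 in Sun-/-. The H3K9me3 peak lay entirely inside the H3K4me3 peak in 16 of 18 and 21 of 24 pairs, close to the 88.9% and 90.1% of all pairs. The summits of the marks were a median of 146 bp apart in the wild type and 168 bp in Sun-/-, against 90 and 89 bp over all pairs.

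Here 19 members were grouped as genes with methylation inherited from a germ cell at a promoter, which need not be the main one. Of these, 12 had coincident peaks in the wild type and 13 in Sun-/-. The shares were 9.33% and 12.4% over all genes, and 15.9% and 20.5% over protein-coding genes. These peaks were counted anywhere in the gene or the window around it, not at the promoter alone. Nespas counted through a region outside the gene, and Airn in Sun-/- through the Igf2r start. Mest, an alpha/beta-hydrolase family gene, and Peg3, a zinc finger gene, carried both marks across the transcription start in both genotypes. Usp29, the divergent neighbour of Peg3, had only H3K4me3 across its own start in the wild type and only H3K9me3 in Sun-/-. Plagl1, a zinc finger transcription factor gene, and Nap1l5, a gene of the nucleosome assembly protein family, had an H3K9me3 peak across the start in Sun-/- alone. In Nap1l5 the wild-type H3K9me3 peak lay within the gene instead. The RefSeq bases (GRCm38.p6) upstream of these starts are shown because peaks of both marks cover them or reach into them. At Nap1l5 these peaks come from different genotypes, H3K4me3 from the wild type and H3K9me3 from Sun-/-. The stretch of Kcnq1ot1 is added as an example with H3K4me3 but no H3K9me3. Capitals mark TGCCGC, the letters that ZFP57 binds when methylated, or the reverse complement GCGGCA. The Mest stretch is chr6:30737800-30738049 on the plus strand, that between Peg3 and Usp29 is chr7:6730420-6730582 read on the minus strand, and that of Plagl1 is chr10:13090582-13090831 on the plus strand. The Nap1l5 stretch is chr6:58907127-58907376 and the Kcnq1ot1 stretch chr7:143296548-143296797, both on the minus strand.
Mest: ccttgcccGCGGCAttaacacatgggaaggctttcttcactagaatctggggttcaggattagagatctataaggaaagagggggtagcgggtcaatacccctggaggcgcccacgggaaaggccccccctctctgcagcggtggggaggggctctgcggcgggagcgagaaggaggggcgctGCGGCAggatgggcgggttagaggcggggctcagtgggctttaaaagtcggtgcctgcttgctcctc
Peg3 to Usp29: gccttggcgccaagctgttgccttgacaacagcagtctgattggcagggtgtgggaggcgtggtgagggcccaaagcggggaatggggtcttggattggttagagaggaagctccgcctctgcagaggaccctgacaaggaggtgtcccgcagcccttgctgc
Plagl1: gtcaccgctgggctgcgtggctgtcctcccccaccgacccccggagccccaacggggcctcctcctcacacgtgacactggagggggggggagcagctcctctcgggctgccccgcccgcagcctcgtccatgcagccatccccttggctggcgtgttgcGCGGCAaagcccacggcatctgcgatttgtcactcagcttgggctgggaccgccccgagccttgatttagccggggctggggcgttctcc
Nap1l5: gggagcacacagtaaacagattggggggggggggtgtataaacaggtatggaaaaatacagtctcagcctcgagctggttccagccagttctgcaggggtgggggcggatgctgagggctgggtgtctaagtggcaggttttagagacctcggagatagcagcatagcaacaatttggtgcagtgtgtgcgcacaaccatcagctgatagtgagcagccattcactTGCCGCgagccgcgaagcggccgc
Kcnq1ot1: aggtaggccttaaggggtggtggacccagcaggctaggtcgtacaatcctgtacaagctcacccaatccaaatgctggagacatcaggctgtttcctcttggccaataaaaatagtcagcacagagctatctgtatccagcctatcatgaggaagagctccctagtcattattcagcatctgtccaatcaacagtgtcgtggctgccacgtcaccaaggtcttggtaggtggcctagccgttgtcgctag

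The Mest stretch held 2 copies of the motif and 14 CG pairs, that of Plagl1 1 copy and 19 CG pairs, and that of Nap1l5 1 copy and 10. The stretch between Peg3 and Usp29 and that of Kcnq1ot1 held 0 copies and 5 CG pairs each. The RefSeq promoter table, with windows from 250 bases before to 50 after a start, held 48 windows of 31 members. The motif was found on either strand in 13 of these 48 windows, 27.1%, against 11.6% of all 32851 windows, and 8.33% against 1.53% held 2 or more copies. Windows of members had a median of 15 CG pairs, against 7 over all windows, and some windows of a gene overlap, as those of Mest do. In 8 windows of 7 members both marks touched the window in the same genotype, and 3 of these 8 held the motif, at Mest and Plagl1. Those of Peg3, Usp29, Inpp5f, Igf2 and Igf2r held 0 copies. The window of Copg2, under H3K4me3 alone, held 1 copy. Such a match describes letters and says nothing about binding in these cells.

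At Mest the H3K4me3 peak held 152 tags in wild-type cells (chr6:30737349-30738728) and 103 in Sun-/-, and the H3K9me3 peak 44 tags (chr6:30737773-30738336) and 34. Both libraries of each mark were thus called at Mest, and each mark held fewer tags in Sun-/-. At the start shared by Peg3 and Usp29, H3K4me3 held 106 and 48 tags, and H3K9me3 25 tags (chr7:6730106-6730482) and 18 (chr7:6730365-6730602). The Sun-/- peaks of the marks overlapped there by 81 bp, against 377 bp in the wild type. At Peg10, a gene derived from a retrotransposon, and its neighbour Sgce, the epsilon-sarcoglycan gene, H3K4me3 held 232 and 202 tags in total and H3K9me3 41 and 21. The H3K9me3 peaks of the genotypes did not overlap there, lying at chr6:4747695-4747998 and chr6:4749198-4749507 in the wild type and at chr6:4746699-4747013, within Sgce, in Sun-/-. At Nap1l5, inside Herc3, H3K4me3 held 41 and 24 tags, and H3K9me3 28 and 26. Its ratio of H3K9me3 to H3K4me3, 0.683 in the wild type and 1.08 in Sun-/-, was the highest of the members in the wild type.

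Gnas encodes the alpha subunit of the stimulatory G protein and starts from several alternative promoters. Its large promoter domain (chr2:174326476-174331486) was the tag-richest H3K4me3 peak of all members, with 1049 tags in wild-type cells and 832 in Sun-/-. Within this domain H3K9me3 held 26 tags in 1 wild-type peak (chr2:174330344-174330672), and 57 tags in 2 Sun-/- peaks. A separate region (chr2:174298952-174300743), between Nespas and that domain, carried 76 and 106 H3K4me3 tags and 26 and 48 H3K9me3 tags, and counted for Nespas too because it began within 5000 bp of it. It was the single one of the 16 shared regions with more H3K4me3 tags in Sun-/-. At the upstream end of Gnas, H3K4me3 held 90 and 71 tags with no H3K9me3 called there. At the upper end of Nespas, a noncoding RNA gene antisense to Gnas, an H3K9me3 peak of 28 tags (chr2:174295249-174295614) was called in the wild type alone, with no H3K4me3.

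Grb10, which encodes an adaptor of the insulin receptor, had 2 such regions. At its start (chr11:12036293-12038097) H3K4me3 held 200 and 196 tags and H3K9me3 28 and 16. Further inside the gene (chr11:12025542-12027017) H3K4me3 held 77 and 50 tags, while H3K9me3 was called in Sun-/- alone, with 62 tags (chr11:12025766-12026507), more than 95.9% of the peaks of that library. The Plagl1 start held 153 and 128 H3K4me3 tags, and an H3K9me3 peak of 31 tags in Sun-/- alone (chr10:13090497-13090855). The Airn start went the other way. Airn, a long noncoding RNA gene antisense to Igf2r, had 311 and 183 H3K4me3 tags (chr17:12741110-12743150) and an H3K9me3 peak of 35 tags in wild-type cells alone (chr17:12742210-12742690). Airn still counted among the members with coincident peaks in Sun-/-, through the Igf2r start that lies inside it. Since a list holds only peaks past the caller's threshold, the tags of the other genotype at these places are not known.

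Impact, which encodes an inhibitor of the kinase GCN2, had H3K4me3 at its lower end and at an inner region in both genotypes, and H3K9me3 at the inner one alone (chr18:12972639-12974842). There H3K4me3 held 223 and 145 tags, and H3K9me3 37 and 30. Inpp5f, a phosphoinositide phosphatase gene, is known for a short imprinted transcript that begins inside it. It carried both marks at its start (440 and 328 H3K4me3 tags, 24 and 28 H3K9me3 tags) and at an inner region (chr7:128687864-128688503), with 41 and 36 H3K4me3 tags and 20 and 26 H3K9me3 tags. The inner region of Inpp5f had the higher ratio of H3K9me3 to H3K4me3, 0.488 and 0.722, against 0.0545 and 0.0854 at the start.

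The other 6 members of this group had no coincident peaks in either genotype. At Snrpn, which encodes a spliceosome protein, H3K4me3 next to a start (chr7:60003918-60005045) held 62 and 35 tags with no H3K9me3 there, and the H3K9me3 peaks of the gene lay elsewhere, with 12 and 39 tags in the wild-type library and 13 to 26 tags in 6 Sun-/- peaks. Kcnq1ot1, the noncoding RNA gene of the Kcnq1 cluster, had 265 and 157 H3K4me3 tags at its start (chr7:143294764-143296699), and H3K9me3 only further inside, with 37 tags in both genotypes near 143251117. In Sun-/- alone there were also H3K9me3 peaks of 42 tags (chr7:143225399-143225956) and 17 tags (chr7:143253233-143253503) inside it. Zrsr1, a splicing factor gene, had 257 H3K4me3 tags in wild-type cells and 65 and 102 in 2 Sun-/- peaks, and no H3K9me3 in either genotype. Peg13, a noncoding RNA gene inside Trappc9, had H3K4me3 peaks of 145 and 150 tags in wild-type cells and 1 of 64 in Sun-/-, and no H3K9me3. Mcts2, a gene copy inside H13, had no peak of either mark at its own start, and an H3K4me3 peak of 43 and 36 tags beside it.

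Nnat, the neuronatin gene inside Blcap, had 1 mark at its start in each genotype, and not the same mark. In the wild type an H3K4me3 peak of 79 tags lay over the start (chr2:157559707-157560710), and the H3K9me3 peak of 25 tags lay further along (chr2:157561424-157561766). In Sun-/- no H3K4me3 peak was called at that start, and an H3K9me3 peak of 29 tags covered it (chr2:157559993-157560356). A further Sun-/- H3K9me3 peak of 59 tags (chr2:157561361-157562019) overlapped the wild-type one. The 79-tag H3K4me3 peak held more tags than 46.8% of its list and the 29-tag H3K9me3 peak more than 80.2%, and with 1 library per group the difference has no replicate check.

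**Figure D3:**
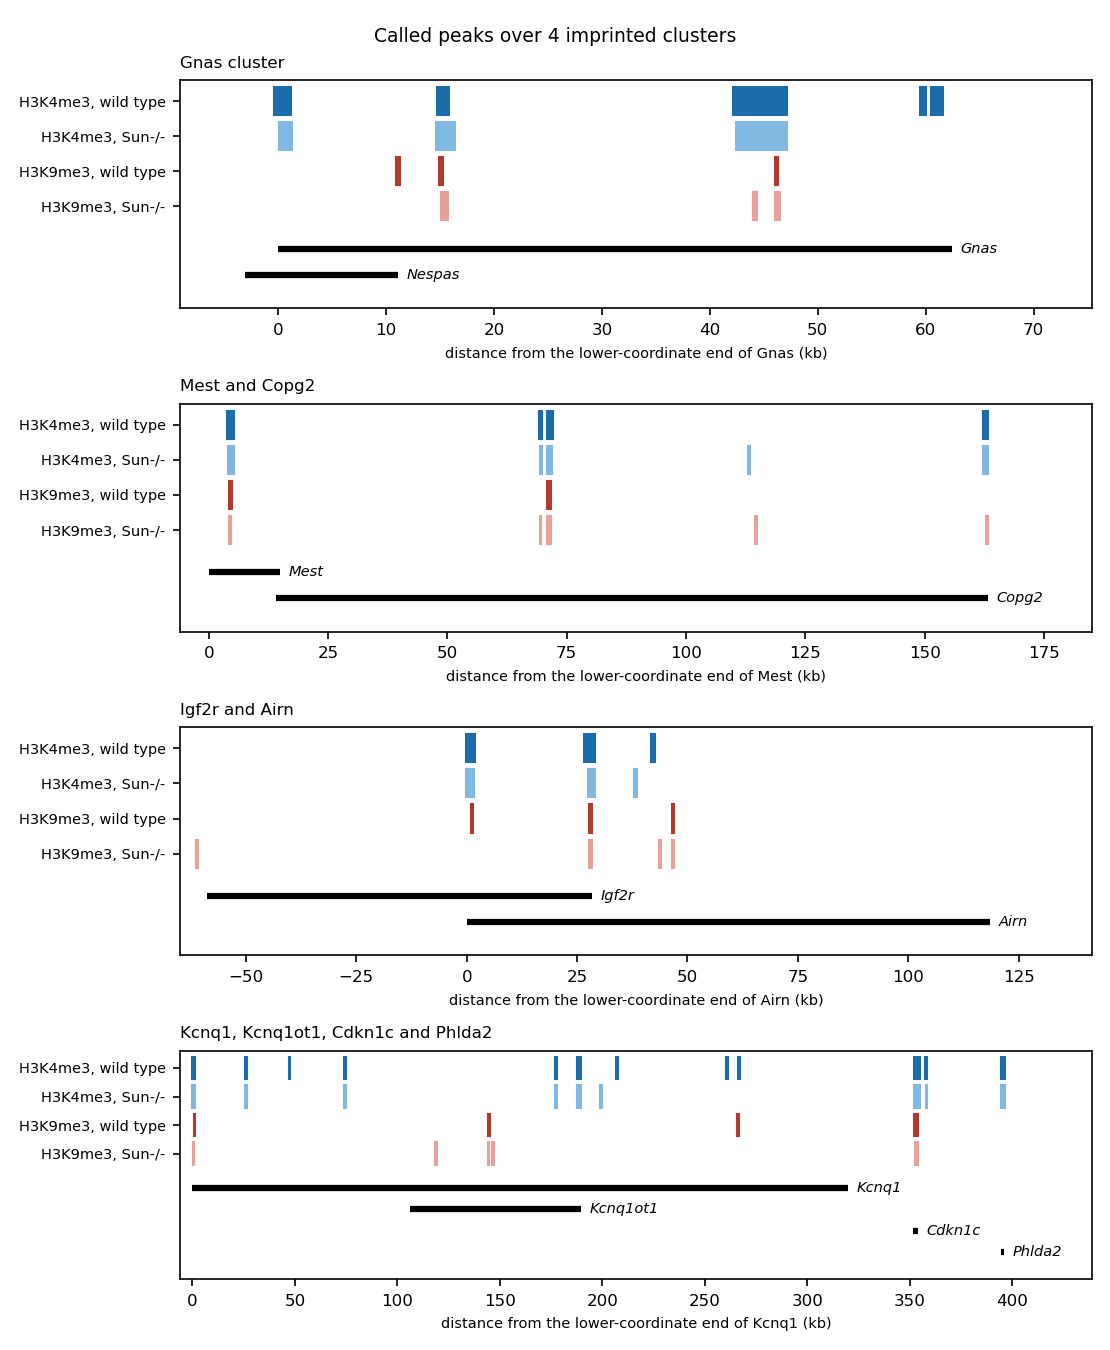
Called peaks of the 4 libraries over 4 imprinted clusters, as blocks drawn to their width (at least a thin line), with the genes as black bars and the horizontal axis in kb from the lower-coordinate end of the gene named under each panel. H3K9me3 blocks lie under H3K4me3 blocks at Mest, inside Copg2, at the Igf2r start and over Cdkn1c in both genotypes, and none lies under the H3K4me3 block at the upper end of Kcnq1ot1.

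Among members grouped here as hosts, neighbours or genes controlled from a distance, 6 of 15 had coincident peaks in the wild type and 7 in Sun-/-. The shares were 9.33% and 12.4% over all genes, and 15.9% and 20.5% over protein-coding genes. The coincident peaks of this group included the tag-richest H3K9me3 peaks of the whole list. Cdkn1c, which encodes the cell cycle inhibitor p57, carried 183 H3K9me3 tags in wild-type cells (chr7:143458988-143461057) and 120 in Sun-/- (chr7:143459733-143460977). These were more than 99.3% and 98.6% of the H3K9me3 peaks of their libraries, and lay within H3K4me3 peaks of 366 and 338 tags. The Cdkn1c pair had a log2 ratio of H3K9me3 tag density, Sun-/- over wild type, of 0.10 (95% interval -0.25 to 0.44), with a narrower Sun-/- peak (1245 against 2070 bp). By tags per peak this ratio was -0.67.

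Copg2, a coatomer subunit gene next to Mest, had H3K9me3 of 57 tags in wild-type cells (chr6:30804484-30805163) and 93 in Sun-/- (chr6:30804480-30805160), in the body of the gene. This pair had the highest H3K9me3 density ratio of the 4 member pairs, 0.68 (0.19 to 1.18), the only one of them with an interval above 0, against 3.25% of all 799 pairs. H3K4me3 held 108 and 96 tags at the same place, a density ratio of 0.50 (0.09 to 0.91). In Sun-/- alone, H3K9me3 was also called at a region just beside the first with 22 tags, and near the Copg2 start with 21. The latter peak (chr6:30896428-30896687) lay inside the gene, within the H3K4me3 peak that covered the start. The table used gives no exons, so these places are not assigned to exon or intron.

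Igf2r encodes the receptor that clears insulin-like growth factor 2. The region of its start carried 326 and 223 H3K4me3 tags (chr17:12767979-12770292 in the wild type) and 76 and 74 H3K9me3 tags, a density ratio of -0.06 (-0.54 to 0.42). The Sun-/- H3K9me3 peak reached across the start, and the wild-type one (chr17:12768911-12769638) ended just inside the gene. Slc38a4, an amino acid transporter gene, had 65 and 61 H3K4me3 tags and 31 and 35 H3K9me3 tags, so the counts of the genotypes were close in both marks. Kcnq1, a potassium channel gene, had 143 and 127 H3K4me3 tags at its lower end and 22 and 36 H3K9me3 tags. Herc3, a ubiquitin ligase gene, had H3K9me3 of 13 tags at its lower end in Sun-/- alone, besides the Nap1l5 region inside it. Ube3a, a ubiquitin ligase gene imprinted in neurons, had an H3K9me3 peak of 14 tags near its start in Sun-/- alone. This peak (chr7:59229181-59229403) lay inside the gene, within the H3K4me3 peak that covered the start (498 and 373 tags). The counts of 13 and 14 tags at Herc3 and Ube3a are near the lowest of any H3K9me3 peak in the Sun-/- library, 12 tags.

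The remaining members of this group carried H3K4me3 without coincident H3K9me3. Phlda2, a growth regulator gene of the placenta, held 172 and 151 H3K4me3 tags, and Mkrn3, a zinc finger gene, held 148 and 111. The H13 start, of a signal peptide peptidase gene, held 568 and 470, and the Trappc9 start 253 and 184. Within 5000 bp of Trappc9 the wild-type library had 10 H3K4me3 peaks and the Sun-/- library 2. Besides the start and the Peg13 peaks, the wild type alone had 7 weaker peaks of 25 to 36 tags there. Magel2 held 29 and 21. Ndn, the necdin gene, was the 1 member with H3K4me3 in the wild type alone, with 68 tags (chr7:62348154-62349344), while 3.73% of all genes were marked so and 0 members were marked in Sun-/- alone (2.14% of all genes). Commd1, the host gene of Zrsr1, had an H3K9me3 peak of 20 tags with no H3K4me3 over it. It and Ube3a were the 2 members with H3K9me3 in Sun-/- alone, against 9.43% of all genes. The Blcap start had 416 and 242 H3K4me3 tags and no H3K9me3 over it.

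Of the 6 members of clusters controlled by methylation between genes, laid down in sperm, 1 had coincident peaks in the wild type and 2 in Sun-/-. The shares were 9.33% and 12.4% over all genes, and 15.9% and 20.5% over protein-coding genes. Igf2, the insulin-like growth factor 2 gene, had 214 and 162 H3K4me3 tags at an inner start and 21 and 26 H3K9me3 tags within it. Zdbf2, a zinc finger gene, had H3K9me3 of 32 tags in wild-type cells (chr1:63248258-63248665) and 14 in Sun-/-, and a small H3K4me3 peak of 25 tags on top in Sun-/- alone. At Zdbf2 it was thus the H3K4me3 call, not the H3K9me3 call, that was made in Sun-/- alone. Meg3, a noncoding RNA gene, had no H3K4me3 in either genotype, and H3K9me3 in the wild type alone, with 36 tags just before its start (chr12:109538821-109539325) and 18 inside, against 8.36% of all genes. H19, a noncoding RNA gene, had no peak in the gene, only an H3K4me3 peak of 74 and 44 tags beyond its end. The control region of H19 is known to lie just upstream of the gene, and no peak of either mark was called on that side within 5000 bp. Dlk1, which encodes a protein related to Notch ligands (83 and 48 tags), and Rasgrf1, which encodes an exchange factor for Ras (245 and 251), had H3K4me3 alone. The regions between genes that are methylated in sperm, at the Dlk1 to Meg3 cluster and at Rasgrf1, are known to lie further from these genes than the window used. Those regions were not analysed here.

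Genotypes were then compared in H3K4me3 tag density, over peaks that matched 1 to 1 with at least 50% reciprocal overlap and at least 50 tags in 1 library. Ratios are given relative to the median of all 17114 pairs. The 35 pairs at members had a median log2 ratio, Sun-/- over wild type, of 0.13 with an SD of 0.23 over pairs, against 0 and 0.24 over all pairs. Of these pairs 25 lay above 0 and 10 below. An interval above 0 was found for 8 of 35, against 8.73% of all pairs, and below 0 for 1 of 35, against 7.26%. None of the 35 reached a 2-fold difference in either direction, and 0.0409% of all pairs were 2-fold denser and 0.0117% 2-fold less dense. With scaling to filtered tags in place of centring, the median of the members was -0.05 and that of all pairs -0.19. This scaling moves every pair by the same amount, so it turns the sign of the members' median and leaves their distance from the median of all pairs as it was. By tags per peak the members' median was 0.06.

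The highest ratio belonged to a peak within the long Snrpn gene (chr7:60155325-60156076), with 47 and 58 tags and 0.69 (0.11 to 1.27). Next came the Blcap start at 0.52 (0.29 to 0.75), whose Sun-/- peak held fewer tags (242 against 416) in a narrower peak (1587 against 3097 bp). By tags per peak the Blcap ratio was -0.30. The region inside Copg2 and the upstream end of Gnas both stood at 0.50. The lowest ratio was that of the Kcnq1ot1 start at -0.39 (-0.68 to -0.10), followed by the inner Impact region at -0.22 (-0.53 to 0.09) and the Airn start at -0.21 (-0.49 to 0.05). The pair of the Mest start stood at 0.04 (-0.34 to 0.41) and that of the large Gnas domain at 0.08 (-0.05 to 0.21), with intervals that include 0.

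**Figure D4:**
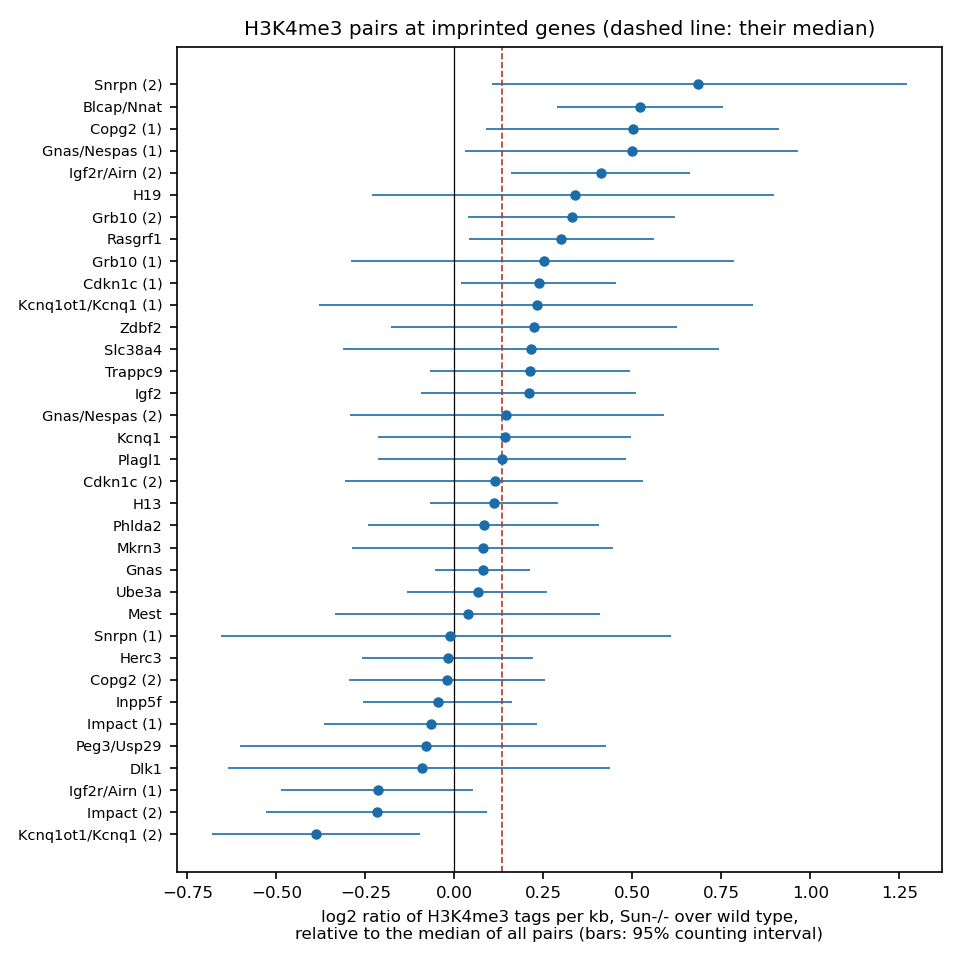
Log2 ratio of H3K4me3 tags per kb, Sun-/- over wild type, for the 35 matched peak pairs at imprinted genes, relative to the median of all pairs (solid line at 0), with bars for the 95% counting interval and 1 library per genotype. Numbers in brackets follow position along the chromosome. The pairs run from -0.39 at the Kcnq1ot1 start to 0.69 within Snrpn, and 26 of the 35 intervals include 0.

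For H3K9me3, 4 pairs at members reached 50 tags in at least 1 library, with a median log2 density ratio of 0.18, against 0 over all 799 pairs. With a minimum of 20 tags the median turned to -0.015 over 14 pairs. Besides Copg2, Cdkn1c and Igf2r this was the Nnat region inside Blcap at 0.27 (-0.43 to 1.01), or 1.18 by tags per peak. An interval below 0 was found for 0 of the 4, against 3.75% of all pairs. None of the 4 reached 2-fold, against 0% of all pairs denser and 0.125% less dense in Sun-/-.

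A pair of further lists were looked at in the same way. Of 44 other imprinted genes found in the table, 8 had coincident peaks in the wild type (18.2%) and 7 in Sun-/- (15.9%), 5 of them in both. Over all genes these shares were 9.33% and 12.4%, with 6.17% in both. Over protein-coding genes they were 15.9% and 20.5%, with 10.4% in both. Klf14, a transcription factor gene near Copg2, held the tag-richest coincident H3K9me3 peak of that list, with 147 and 125 tags, followed by Ppp1r9a, near Peg10, with 83 and 75. Pde10a (51 tags) and Cd81 (28) had one in Sun-/- alone, Slc22a2 (27) in the wild type alone, and Casd1 in both (12 and 27). Of 21 genes for factors that maintain imprints, all had H3K4me3 in both genotypes, 8 had coincident peaks in the wild type (38.1%) and 6 in Sun-/- (28.6%), but 3 in both. Among all genes with H3K4me3 the shares were 19.5% and 26.8%. Arid4a, Arid4b and Smchd1 were those 3. Zfp445, Trim28, Dnmt3a, Hells and Ehmt2 had coincident peaks in the wild type alone, and Setdb1, Uhrf1 and Cbx3 in Sun-/- alone. By H3K4me3 tags in the strongest peak, Dnmt3a, a DNA methyltransferase gene, led this list with 1303 and 956, before Ehmt2, an H3K9 methyltransferase gene (803 and 611), Trim28 (714 and 500) and Ctcf (667 and 430). Zfp57 itself had H3K4me3 of 143 and 113 tags within its window, with no coincident H3K9me3.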

How the data were processed

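Peaks of H3K4me3 and H3K9me3 were called by the authors in each of 4 libraries with MACS 1.4.2 at a p-value limit of 1e-05. No control library entered, at most 1 tag per position was kept, and the local background reached up to 10000 bp, per the file headers. CASAVA 1.4, Bowtie 0.12.8 and DiffBind, with the build mm10, were named without their roles, per the submitters' processing notes. The deposited values were the tag count of each peak, the caller's score, which grows as the p-value falls, a linear ratio (fold enrichment over local background), and other measures in bp (summit, width). Filtered tags were 29681491 and 26748289 for H3K4me3 (wild type, Sun-/-) and 27727997 and 28586946 for H3K9me3, per the file headers. The fragment estimates of H3K9me3 were 66 and 71 bp, close to the tag length, per the file headers, and their effect on peak positions was not tested.

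Genes, synonyms and promoter sequences came from RefSeq tables of GRCm38.p6, the assembly of mm10. Overlaps and ratios were computed with Python 3.11.15, numpy 2.4.6, pandas 2.3.3 and scipy 1.17.1, and figures with matplotlib 3.10.9. Ratios of matched pairs are log2 values of tags per kb, centred on the median pair, with exact conditional binomial 95% intervals, and 2-fold was the size rule. The computation was tested on simulated data. Members, lists and alternatives were chosen with earlier results of these data known. Values are given for members with coincident peaks, for those marked in 1 genotype alone, and for the 3 highest and 3 lowest pairs per mark. Of the other lists, up to 6 imprinted genes with coincident peaks by H3K9me3 tags are named, and 4 factors by H3K4me3 tags with any that had coincident peaks. Other members are named as examples of their group. Alternatives were other windows, a score limit, other definitions of coincidence, other scalings, and other rules for pairs.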

Additional observations from a re-analysis of the deposited data

How the results depend on the processing

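No paired analysis was possible because each group held 1 library. With peaks of a score of at least 100 alone, fewer members were counted: 16 with H3K9me3 in each genotype, and 11 in the wild type, 9 in Sun-/- and 7 in both with coincident peaks, against 2.66% and 3.67% of all genes in the wild type and Sun-/-. Under that limit Gnas, Herc3, Impact and Nap1l5 had coincident peaks in the wild type alone, and Kcnq1 and Plagl1 in Sun-/- alone. The other windows and definitions of coincidence gave 16 to 21 members in the wild type (6.72% to 11.3% of all genes) and 19 to 24 in Sun-/- (8.88% to 15%). When at least 50% of the narrower peak had to be shared, 19 members were counted in each genotype, and Nap1l5, Peg3 and Usp29 were coincident in the wild type alone. So were Blcap and Nnat with a gap of up to 1000 bp allowed, Commd1 with a window of 10000 bp, and Peg10 with peaks in the gene body only. With H3K4me3 peaks of either genotype allowed, an alternative chosen after seeing the data, these were 20 and 24. The median H3K4me3 ratio of member pairs turned to -0.054 with scaling to filtered tags, where that of all pairs was -0.19 by the same shift, and the Blcap ratio to -0.30 with tags per peak. The median H3K9me3 ratio turned to -0.015 over 14 pairs of at least 20 tags. The cause of the changes other than that shift was not tested. H3K9me3 peaks at members held a median of 25 tags in both genotypes, so a call in 1 genotype alone can rest on a few tags.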
